A study of Mus musculus with 2 samples.

Results

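Genes that process, carry or use small RNAs, or that edit RNA duplexes, were followed in primary mouse hepatocytes, the main cells of the liver, isolated and cultured. They are the Argonautes Ago1, Ago2 and Ago3, the nucleases Dicer1 and Drosha, their RNA-binding partners Dgcr8, Tarbp2 and Prkra, the export factor Xpo5, and the editing enzyme Adar. They were chosen by gene symbol, and all 10 members have a row among the 14339 named genes of the expression table. Poly-A RNA was sequenced from hepatocytes given ClpP siRNA, which targets a protease subunit of the mitochondrial matrix, and from hepatocytes given GFP siRNA, the control for a gene that mouse cells lack. Each group is 1 library, and both groups carry a small interfering RNA delivered with Lipofectamine, so no library shows these genes in cells without transfected duplex RNA. The mouse strain and age, the siRNA dose, the time of harvest and the number of animals behind each library are not given in the labels or protocols.

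In the microRNA pathway, Drosha and its partner Dgcr8 cut hairpins out of primary transcripts in the nucleus, and Xpo5 carries the hairpins to the cytoplasm. Dicer1, bound by Tarbp2 or Prkra, trims them to short duplexes, and an Argonaute keeps the guide strand and finds matching messenger RNA. A transfected siRNA duplex enters at the loading step, and in mammals Ago2 is the Argonaute known for cutting a fully matched target. Adar converts adenosine to inosine within duplex RNA, which keeps the cell's own duplexes from being sensed as foreign. Its long form is made from an interferon-inducible start, and its short form from constitutive starts.

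Because Adar carries the widest difference among the members, the windows around its starts are shown, 250 bases before to 50 bases from each start, as RefSeq gives them on GRCm38.p6 chromosome 3, plus strand. Promoter windows were matched by symbol for 9 of the 10 members, all but Ago2. GENCODE pairs the RefSeq transcripts of the Adar row with coding lengths. The 2 that begin near the downstream start have 1152 and 1178 codons, and the 1 that begins at the upstream start has 930 codons. The 2 long ones begin at base 89730748 in GENCODE, inside the downstream window but past its RefSeq start. Capitals mark matches to GAAANGAAA or GAAANNGAA on either strand. These are relaxed forms of GAAANNGAAA, the core of the interferon-stimulated response element, and were chosen after the windows had been read.
Adar downstream start, chr3:89730468-89730767: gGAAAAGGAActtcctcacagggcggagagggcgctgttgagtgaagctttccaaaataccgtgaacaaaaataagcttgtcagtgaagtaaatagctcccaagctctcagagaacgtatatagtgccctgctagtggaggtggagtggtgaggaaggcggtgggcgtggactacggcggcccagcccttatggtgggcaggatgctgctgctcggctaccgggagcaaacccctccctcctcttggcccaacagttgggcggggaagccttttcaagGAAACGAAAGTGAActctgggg
Adar upstream start, chr3:89714772-89715071: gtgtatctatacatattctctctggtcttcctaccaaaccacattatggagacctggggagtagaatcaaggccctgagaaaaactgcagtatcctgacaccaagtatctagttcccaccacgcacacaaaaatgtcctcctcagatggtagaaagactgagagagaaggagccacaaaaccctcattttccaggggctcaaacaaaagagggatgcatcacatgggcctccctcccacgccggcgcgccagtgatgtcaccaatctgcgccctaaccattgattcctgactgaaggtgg

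With bases counted from the RefSeq start, the downstream window holds GAAACGAAA from base 29, which crosses the GENCODE start of the long transcripts. The window also holds GAAAGTGAA from base 34, overlapping the second half-site of GAAACGAAA, and a further GAAAAGGAA near its upstream end. It also holds TTCAAGGAA, a match to TTCNNNGAA, the gamma-activated site, which reads the same on both strands, and this match runs into GAAACGAAA. The upstream window holds none of these motifs, nor does a further Adar window that overlaps it and is not shown. GAAANNGAAA itself is in 0 of the 12 windows of the members, in 3.44% of all 32851 windows, and in windows of 12 of the 25 genes of an interferon response list that have one. GAAANGAAA is in 3.17% of all windows, GAAANNGAA in 8.56% and TTCNNNGAA in 8.3%. In the same order, they are in windows of 6, 14 and 3 of the 25 interferon list genes. Among the members each of these was found for Adar alone. For GAAANGAAA and GAAANNGAA this does not set Adar apart, because both were chosen after the windows had been read. Nor does it for TTCNNNGAA, found in 1 of the 12 member windows, a share like that of all windows. Adar also has more windows than any other member. A match is a string of letters and no measure of binding, and a window without one says only that these letters are not in it.

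Levels are FPKM, the authors' deposited fragment density per kilobase of transcript, scaled for library size, so they can be compared between genes. Differences are log2 ratios, log2(FPKM + 1) with ClpP siRNA minus log2(FPKM + 1) with GFP siRNA. Neither group is replicated, so values carry no error, no test was possible, and a difference is called only by its size, at 2-fold or more. FPKM keeps no read count, so the depth is unknown. Clpp, the targeted gene, had 9.32 FPKM with ClpP siRNA and 45.1 FPKM with GFP siRNA, a log2 ratio of -2.16. Of the 11087 genes with a mean FPKM of at least 1, 5.19% were at least 2-fold higher with ClpP siRNA and 2.04% at least 2-fold lower, and the median log2 ratio was -0.01.

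Against this background, 1 of the 9 members with a mean FPKM of at least 1 was at least 2-fold higher and 0 were lower. That member was Adar. The median log2 ratio of the 9 was -0.09, and that of the 8 without Adar was -0.13, with 2 of the 8 above 0 and 6 below. Of all 11087 genes, 5468 lay above 0 and 5619 below. The 8 ran between -0.60 for Dgcr8 and 0.35 for Tarbp2. Of them, 7 lay between the 16th and 84th percentiles of all genes, -0.36 and 0.40, a range that holds most genes by definition. In these bulk libraries, fewer cells of a type and less RNA per cell cannot be told apart. The plot of levels by library sets both values of each gene side by side.

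**Figure D1:**
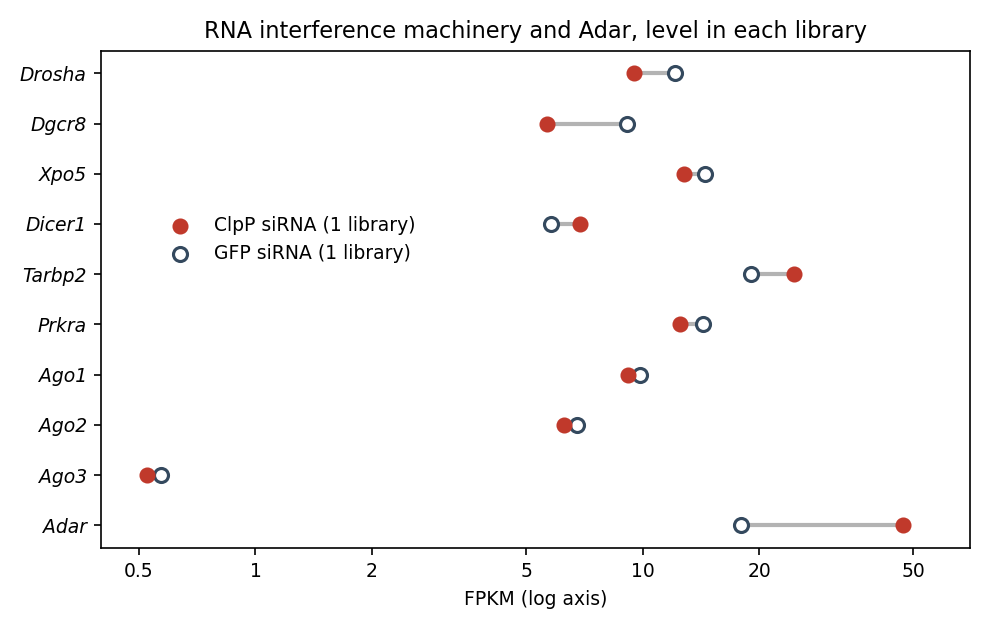
FPKM of the 10 genes on a log axis, with a filled point for the ClpP siRNA library and an open point for the GFP siRNA library (1 library each, no error bars). Adar shows the widest gap, 47.2 against 18.0 FPKM, and Ago3 lies below 1 FPKM in both libraries.

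Drosha, the nuclear nuclease, had 9.53 FPKM in the ClpP siRNA library and 12.1 FPKM in the GFP siRNA library, a log2 ratio of -0.31. Dgcr8, which binds the hairpin beside Drosha, had 5.66 FPKM with ClpP siRNA and 9.13 FPKM with GFP siRNA. Its log2 ratio of -0.60 was the lowest of the members, and 700 of the 11087 genes had a lower one. Drosha therefore stood at 1.68 times the FPKM of Dgcr8 in the ClpP siRNA library and at 1.33 times in the GFP siRNA library. Multiplying a library by a single factor does not alter such a ratio, while quantile normalization can.

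Dgcr8 is known in mouse and human cells as a target of its own complex, since Drosha cuts hairpins within its messenger RNA. RefSeq places the mature microRNAs of 2 hairpins within the Dgcr8 gene on GRCm38.p6 chromosome 16, minus strand. They are shown because they mark those hairpins, with the seed, bases 2 to 8, in capitals. The 4 seeds differ from one another.
mmu-miR-1306-5p: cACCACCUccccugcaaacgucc
mmu-miR-1306-3p: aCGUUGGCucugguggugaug
mmu-miR-3618-5p: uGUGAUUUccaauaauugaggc
mmu-miR-3618-3p: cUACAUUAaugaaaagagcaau
Poly-A libraries of this kind do not measure mature microRNAs, and neither hairpin has a row of its own in the table. The RefSeq span of Dgcr8 overlaps that of Trmt2a, a tRNA methyltransferase gene, and the library kit does not mark strand, so reads of the shared stretch cannot be told apart. Trmt2a had 10.7 FPKM with ClpP siRNA and 9.87 FPKM with GFP siRNA, a log2 ratio of 0.11, on the other side of 0 from Dgcr8.

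Xpo5, the carrier of hairpins out of the nucleus, had 12.8 FPKM in the ClpP siRNA library and 14.5 FPKM in the GFP siRNA library. The log2 ratio was -0.17, with 3501 of the 11087 genes lower and 7585 higher. Xpo5 was the third in level among the 10 genes in both libraries.

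Dicer1, the cytoplasmic nuclease, had 6.90 FPKM with ClpP siRNA and 5.80 FPKM with GFP siRNA, a log2 ratio of 0.22. Tarbp2, a duplex-binding partner of Dicer1 that helps load Argonaute, had 24.7 FPKM with ClpP siRNA and 19.1 FPKM with GFP siRNA, a log2 ratio of 0.35. Prkra, the related partner that is also known as an activator of the kinase Eif2ak2, had 12.5 FPKM with ClpP siRNA and 14.4 FPKM with GFP siRNA, a log2 ratio of -0.19. Tarbp2 and Dicer1 were thus the only members besides Adar above 0, and Prkra was below.

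Per unit of length, messenger RNA of the partners was more abundant than that of Dicer1 in both libraries. Tarbp2 stood at 3.57 times the FPKM of Dicer1 with ClpP siRNA and at 3.29 times with GFP siRNA, and Prkra at 1.80 times with ClpP siRNA and 2.48 times with GFP siRNA. The FPKM of Tarbp2 was 1.98 times that of Prkra with ClpP siRNA and 1.33 times with GFP siRNA. The span of Tarbp2 overlaps that of Map3k12, a kinase gene, which had 3.90 FPKM with ClpP siRNA and 6.24 FPKM with GFP siRNA, a log2 ratio of -0.56 and so of the other sign.

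Ago1 had 9.20 FPKM in the ClpP siRNA library and 9.87 FPKM in the GFP siRNA library, a log2 ratio of -0.09. Ago2 had 6.26 FPKM with ClpP siRNA and 6.75 FPKM with GFP siRNA, also a log2 ratio of -0.09. Ago3 had 0.525 FPKM with ClpP siRNA and 0.569 FPKM with GFP siRNA, too low for the limit of 1, with a log2 ratio of -0.04 that the added 1 holds close to 0. The 3 Argonautes differed little between the libraries, and their order was the same in both.

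Ago4, the remaining Argonaute of the mouse and not a member, had 0.998 FPKM with ClpP siRNA and 1.10 FPKM with GFP siRNA. Of the Argonaute FPKM summed over the 4 genes, 17.0 with ClpP siRNA and 18.3 with GFP siRNA, Ago1 made up 54.2% with ClpP siRNA and 54.0% with GFP siRNA. Ago2 made up 36.9% in each library. Ago3 held 3.09% with ClpP siRNA and 3.11% with GFP siRNA, and Ago4 held 5.88% with ClpP siRNA and 5.99% with GFP siRNA. The share of each of the 4 genes thus differed by at most 0.17 percentage points between the libraries.

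Adar had 47.2 FPKM in the ClpP siRNA library and 18.0 FPKM in the GFP siRNA library, 2.63 times as much before the added 1, and a log2 ratio of 1.35. It was the most abundant of the 10 genes with ClpP siRNA, and the second with GFP siRNA, where Tarbp2 was above it. Its FPKM exceeded that of 87.7% of the 14339 genes with ClpP siRNA and of 71.8% with GFP siRNA. Of the 11087 genes, 377 had a higher log2 ratio. The authors' deposited table gives Adar a signed fold change of 2.43, after their quantile normalization.

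The deposited row joins 3 transcripts of Adar, which cover the long and the short form, so the forms could not be separated. Adarb1, the other active editing enzyme of this family, had 3.92 FPKM with ClpP siRNA and 5.40 FPKM with GFP siRNA, a log2 ratio of -0.38. Within a library, Adar stood at 12.0 times the FPKM of Adarb1 with ClpP siRNA and at 3.32 times with GFP siRNA. Against Dicer1, Adar stood at 6.83 times with ClpP siRNA and at 3.09 times with GFP siRNA, and against Ago2 at 7.53 times with ClpP siRNA and at 2.66 times with GFP siRNA. The span of Adar touches that of Chrnb2, a neuronal receptor subunit gene listed at only 0.0926 FPKM with ClpP siRNA and 0.0392 FPKM with GFP siRNA.

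**Figure D2:**
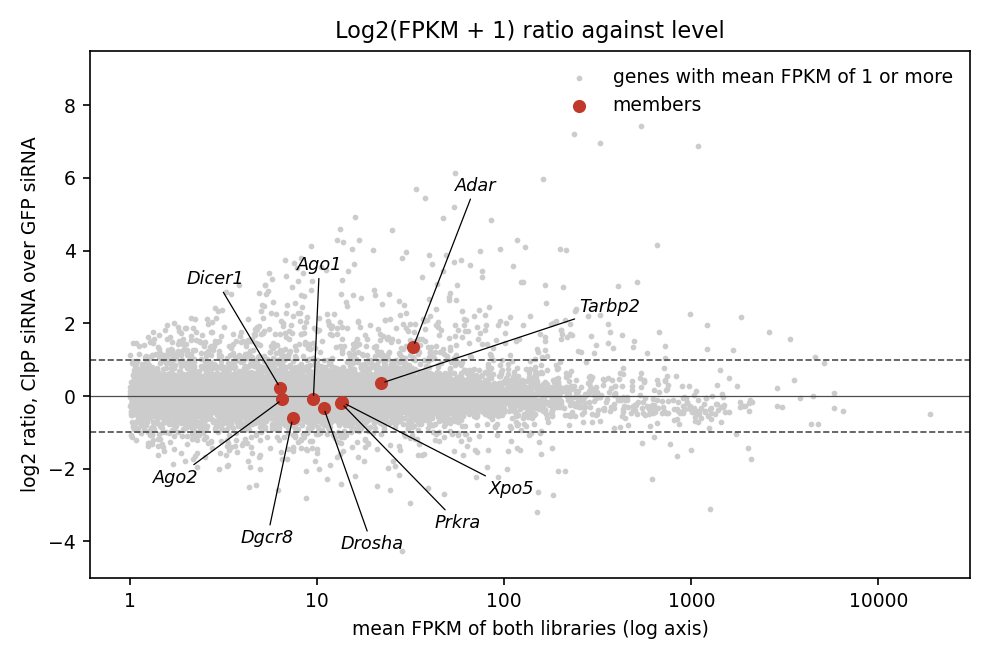
Log2 ratio (ClpP siRNA over GFP siRNA) against mean FPKM on a log axis for the 11087 genes with a mean of at least 1 (grey) and the 9 members that reach it (red), with dashed lines at 2-fold. Adar lies above the upper line at 1.35, and the other 8 lie between the lines.

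Genes that act beside the members were described by lists. Of 28 microRNA processing cofactors with a mean FPKM of at least 1, 1 was at least 2-fold higher and 0 lower, and the median log2 ratio was -0.10. The 1 was Zcchc6, a uridylyltransferase that adds uridine to the ends of RNA, microRNA hairpins included, and now goes by the symbol Tut7. It had 40.6 FPKM with ClpP siRNA and 13.5 FPKM with GFP siRNA, a log2 ratio of 1.52. The most abundant cofactors were Rnh1, a ribonuclease inhibitor, with a log2 ratio of 0.27, and the RNA-binding protein Hnrnpa2b1, with 0.05.

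Of 27 genes of small RNA loading, stability and turnover, 0 passed 2-fold in either direction, and the median was 0.02. Hspa8 and Hsp90ab1, the chaperones that open Argonaute for a duplex, were the most abundant, with log2 ratios of -0.04 and -0.05. Hspa8 had 1461 FPKM with ClpP siRNA and 1499 FPKM with GFP siRNA. Pnpt1, an interferon-inducible exoribonuclease named after its values were seen, stood just inside the limit at 0.99, with 21.5 FPKM in the ClpP siRNA library and 10.3 FPKM in the GFP siRNA library.

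Among 27 silencing effectors, the proteins that bind Argonaute or remove cap and tail from its targets, 1 was at least 2-fold higher, 0 were lower, and the median was -0.05. It was Mov10, an RNA helicase that associates with Argonaute and is interferon-inducible, with 68.7 FPKM with ClpP siRNA and 20.7 FPKM with GFP siRNA, a log2 ratio of 1.68. Pabpc1, the poly-A binding protein and the most abundant of them, had -0.50, and Ajuba, a scaffold protein, -0.23. Of the other Argonautes and ADARs only Ago4 and Adarb1 passed the limit of 1, and neither was past 2-fold.

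Of 14 other proteins that bind duplex RNA, 1 was at least 2-fold higher and 0 lower, with a median of -0.24, which was -0.03 among those with a mean FPKM of at least 5. It was Eif2ak2, the interferon-inducible kinase that Prkra can activate, with 30.1 FPKM with ClpP siRNA and 12.8 FPKM with GFP siRNA, a log2 ratio of 1.17. The most abundant were the helicase Dhx9, at -0.15, and Son, a splicing factor, at 0.13. Eif2ak2 and Prkra thus lay on opposite sides of 0.

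The list of inosine handling and clearance of duplex RNA was mostly sensors. Of its 9 measured genes, 6 were at least 2-fold higher and 0 lower, Eif2ak2 being counted here as well, and the median was 1.57. Zbp1, a sensor that shares its Z-form nucleic acid binding domain with the long form of Adar, had 375 FPKM with ClpP siRNA and 21.6 FPKM with GFP siRNA, a log2 ratio of 4.06. Dhx58 had 3.06, Tlr3 2.58 and Ifih1 1.87, all sensors of viral duplex RNA. Snd1, a nuclease reported to cut inosine-containing RNA and named after its values were seen, had -0.17, with 44.7 FPKM with ClpP siRNA and 50.5 FPKM with GFP siRNA. Endov, also named after its values were seen, had -0.17. Snd1 and Endov were the only 2 of the 9 below 0.

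The interferon response list had 34 of 35 genes at least 2-fold higher and 0 lower, and a median log2 ratio of 3.14. Like the other lists, it was chosen with earlier results of these data known, so it is no independent yardstick for Adar. It shares 4 genes with the preceding list, Ddx58, Dhx58, Ifih1 and Zbp1, so the counts of the pair are not separate. Its 35 ratios ran between 0.89 and 7.42. Adar stood near the low end of that range, with 33 of the 35 above it and 2 below. The highest were Ifit3 at 7.42, Oas3 at 6.15, Rsad2 at 5.97 and Mx1 at 5.69, and the most abundant were Bst2 at 1.95 and Isg15 at 4.16.

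**Figure D3:**
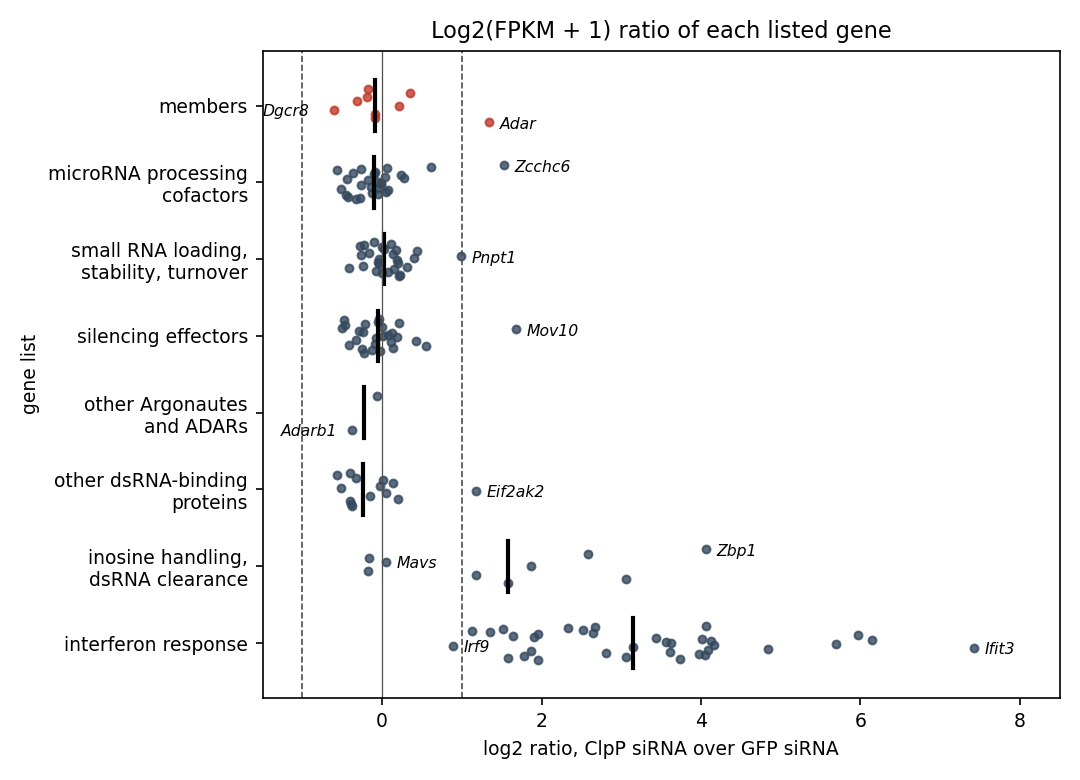
Log2 ratio (ClpP siRNA over GFP siRNA) of each listed gene with a mean FPKM of at least 1, 1 point per gene, with the list's median as a black bar and dashed lines at 2-fold. In the 6 upper lists at most 1 gene lies past the upper line. Past it lie 34 of the 35 interferon response genes and 6 of the 9 in the inosine handling and clearance list, mostly sensors.

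Cell type markers also differed between the libraries. All 7 hepatocyte markers were measured, with a summed level of 7133 FPKM with ClpP siRNA and 3308 FPKM with GFP siRNA. Alb made up most of this, with 6245 FPKM with ClpP siRNA and 2952 FPKM with GFP siRNA. Of the 7, 5 were at least 2-fold higher, and the 2 below 0 were Apob at -0.32 and Asgr1 at -0.61. The 9 macrophage markers summed to 233 FPKM with ClpP siRNA and 39.9 FPKM with GFP siRNA, of which Cd68 made up 226 FPKM with ClpP siRNA and 24.9 FPKM with GFP siRNA, and 5 of the 6 that reached the limit of 1 lay below 0. The 7 sinusoidal endothelial markers summed to 14.7 FPKM with ClpP siRNA and 27.6 FPKM with GFP siRNA. Of the 5 that reached the limit of 1, 4 lay below 0, and Oit3 lay above it at 0.33. The 7 stellate and fibroblast markers summed to 15.97 FPKM with ClpP siRNA and 35.1 FPKM with GFP siRNA. Most of the difference in the stellate and fibroblast sum was Acta2, with 9.47 FPKM with ClpP siRNA and 26.5 FPKM with GFP siRNA. Col3a1 was lower too, with 0.537 FPKM with ClpP siRNA and 1.97 FPKM with GFP siRNA. Des, Lrat and Rgs5, all under the limit of 1, were also lower with ClpP siRNA. Col1a1 had 2.72 FPKM with ClpP siRNA and 2.69 FPKM with GFP siRNA, and Dcn 2.68 FPKM with ClpP siRNA and 2.69 FPKM with GFP siRNA. The 5 cholangiocyte markers summed to 937 FPKM with ClpP siRNA and 1629 FPKM with GFP siRNA, most of it Spp1, which other cells also make, with a log2 ratio of -0.88. The other 3 cholangiocyte markers that reached the limit lay above 0, and Krt19 had 50.2 FPKM with ClpP siRNA and 9.58 FPKM with GFP siRNA. None of the 12 lymphocyte and 5 neutrophil markers has a row. The part of these shifts in the values of Adar and the other members was not tested.

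**Figure D4:**
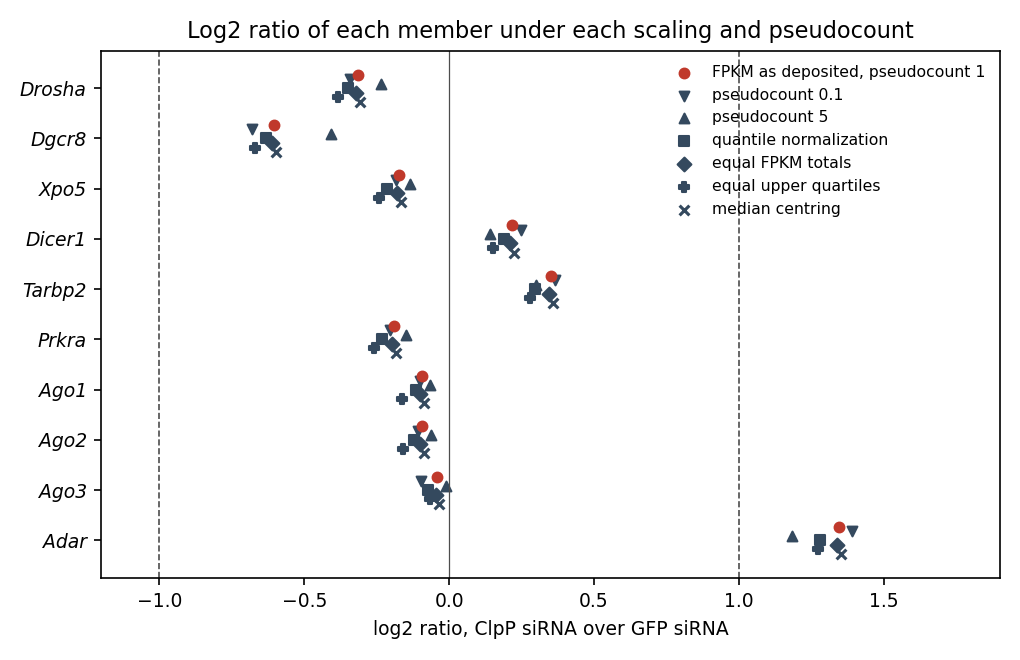
Log2 ratio (ClpP siRNA over GFP siRNA) of each member with FPKM as deposited (red) and under 6 other scalings or pseudocounts (dark), with dashed lines at 2-fold. Adar stays between 1.18 and 1.39, and no other member reaches a line.

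Under 6 other scalings and pseudocounts each of the 10 members kept its sign. A change of pseudocount cannot turn a sign, and no setting stands in for a replicate. Adar ran between 1.18 and 1.39, Dgcr8 between -0.68 and -0.41, and Tarbp2 between 0.28 and 0.37. Ago3 came closest to 0, at -0.01 with a pseudocount of 5.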

How the data were processed

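Poly-A RNA of mouse primary hepatocytes was measured in 2 libraries, 1 given ClpP siRNA and 1 given GFP siRNA, made with the TruSeq RNA kit v2 per the labels' protocols. Per the file headers, the authors deposited FPKM per gene. They also deposited a log2 column for each library, which quantile normalization of log2(FPKM + 1) gave back to within 0.001. A score column holds the authors' deposited signed fold change, 2 to the power of the log2 difference, negative inverse where lower. Another deposited column, the geometric mean of the log2 values, was not used. The submitters' processing notes name STAR 2.4.0f1, Cufflinks 2.2.1, Bowtie2 2.2.3, TopHat2 2.0.13, Trimmomatic 0.32 and FastQC 0.10.0, with no role or order, and no label or header names a genome build. The column of the ClpP siRNA library was identified from its abbreviated header and as the column left once GFP was matched, with no value used.

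Of 14346 rows, all above 0 in both libraries, 7 name no gene and were left out (0.0335% of the FPKM total with ClpP siRNA and 0.0475% with GFP siRNA). Genes without a row were not analysed here. Ratios were computed with pandas 2.3.3 on log2(FPKM + 1), which understates the change of low genes, for genes with a mean FPKM of at least 1. Only the ratio and the 2-fold rule were tested on simulated data, with changes wider than that of Adar and without quantile normalization. The members and lists were chosen with earlier results of these data known. Lists (7 of the pathway, 7 of cell type markers) were matched by symbol or, for 4 genes under older symbols, by RefSeq gene ID. The text names all members, and of each pathway list up to 4 genes past 2-fold by size and the 2 most abundant; for Adar, Ago2 and Dicer1 it names the 3 nearest genes in level. Other genes are said to be named after their values were seen or stand as neighbours or markers. Alternatives were pseudocounts of 0.1 and 5, quantile normalization, equal totals, equal upper quartiles, median centring, no filter and a mean FPKM of at least 5.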

Additional observations from a re-analysis of the deposited data

How the results depend on the processing

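Of 281 values recomputed under other settings, 274 kept their side of 2-fold, stayed within 1.5 times a count, or moved a median by less than the half-range between the 16th and 84th percentiles of all genes. With a pseudocount of 5, 327 genes in all were at least 2-fold higher and 89 lower, against 575 and 226; the interferon list median was 2.42, and Eif2ak2 fell short, leaving 0 of the other duplex-binding proteins past 2-fold. With a pseudocount of 0.1, 357 genes were at least 2-fold lower, and 1 gene of small RNA loading, stability and turnover, Pnpt1, passed it. With a mean FPKM of at least 5, 142 genes were lower, and the list of other Argonautes and ADARs had no median because no gene was left. The median of small RNA loading, stability and turnover, near 0, was below 0 after quantile normalization and with equal upper quartiles. The count of members past 2-fold was the same under every setting run. No paired analysis was possible because each group is 1 library. The unknown depth limits the low genes most, Ago3 and Ago4 among the Argonautes.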

Other observations

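The genes nearest to Adar in level, by distance of log2(FPKM + 1) over the 2 libraries, were Daxx, a nuclear histone chaperone, St3gal1, a sialyltransferase, and Cryab, a small heat shock protein. Daxx had 47.1 FPKM with ClpP siRNA and 17.3 FPKM with GFP siRNA, a log2 ratio of 1.39. Within a distance of 0.25 lay 14 named genes for Adar, 438 for Ago2 and 356 for Dicer1. Nearest to Ago2 were Zbtb20, Uevld and Itpripl2, with log2 ratios of -0.11, -0.10 and -0.07, and nearest to Dicer1 were Frs2, Osmr and Acad12, with 0.23, 0.23 and 0.18. With 2 libraries, nearness says only that the 2 levels are alike.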
